A study of Mus musculus with 14 samples.

Results

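The CpG sites described here are those whose methylation hardly varied between mice. They were chosen by their measured levels: a site on chromosomes 1 to 19 was taken when the sample standard deviation (SD) of its methylation level over all 14 mice was under 0.05, that is under 5.0 percentage points. This selected 9959 of 72480 autosomal sites (13.7%), out of 75761 sites in the deposited table, and the other 62521 autosomal sites are the comparison. The small spread between mice is therefore the rule and not a result, and the levels, places and genes of the stable sites are given as a description. A further 192 sites off these chromosomes had an SD under the same limit and are not used. Each stable site lay at the C of a CpG in the mm10 genome, whereas 12 sites of the table did not.

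Methylation was measured by reduced-representation bisulfite sequencing (RRBS) in the mammary adipose tissue opposite the tumor of female C57BL/6NCrl mice, bought at 8 weeks of age and listed with the genotype wt. CON-LFD mice (n = 3) stayed on a low-fat diet (10% of calories from fat) from start to end. All other mice first ate a high-fat diet with 60% of calories as fat for 15 weeks. DIO-HFD mice (n = 4) then stayed on it, DIO-LFD mice (n = 3) were switched to the low-fat diet, and DIO-VSG mice (n = 4) had vertical sleeve gastrectomy, which removes most of the stomach, and were switched to the low-fat diet too. The CON-LFD, DIO-HFD and DIO-LFD mice had a sham operation. All 14 mice, controls included, received E0771 mammary tumor cells in the fourth mammary fat pad 7 weeks after the operation, and the pad of the other side was taken 4 weeks later, so no group stands for a mouse without a tumor. The labels give E0771 as the cell line and mammary cancer as the cell type although the tissue is the normal fat pad, which is a mixture of cell types. Switching the diet without a change of operation separates DIO-LFD from DIO-HFD mice, whereas DIO-VSG differs from DIO-HFD mice in both. The labels do not say how each replicate was housed or handled, so p-values measure only the spread between these samples.

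In mammals, methyl groups are carried mostly by cytosines followed by guanine. CpG islands, short stretches dense in CpGs, cover many promoters and are usually free of methylation, whereas CpGs in gene bodies and repeats are usually methylated. At imprinted genes, the copies inherited from the mother and the father differ in methylation, so that a mixture of both reads as an intermediate level. RRBS cuts DNA with MspI, an enzyme that recognizes CCGG, and sequences the ends of short fragments, so the CpG inside each cut site lies at a fragment end, where the ends are filled in during library preparation.

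The sequences of some stable sites show the kinds of place where they were found. They are the plus strand of mm10 (GRCm38), written 5′ to 3′ in lower case, with the C and G of each stable CpG in capitals. CpGs left in lower case were either not in the table or varied more. The first 4 stretches hold runs of stable sites outside CCGG and were picked after their values were seen: a coding exon of Gnas, the imprinted gene of a G protein alpha subunit, with levels of 43.9% to 47.0%; a coding exon of the SH2-domain adaptor gene Shd, with 24.9% to 56.0%; the CpG island before Clstn2, a synaptic calsyntenin gene, with 0.600% to 3.98%; and a run assigned to the predicted gene Gm42596 but inside a non-coding exon of Fbrsl1, with 92.0% to 94.6%.
Gnas, chr2:174299947-174300048, coding exon: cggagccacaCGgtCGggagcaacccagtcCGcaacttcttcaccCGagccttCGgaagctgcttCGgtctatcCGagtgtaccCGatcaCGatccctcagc
Shd, chr17:55971475-55971603, coding exon: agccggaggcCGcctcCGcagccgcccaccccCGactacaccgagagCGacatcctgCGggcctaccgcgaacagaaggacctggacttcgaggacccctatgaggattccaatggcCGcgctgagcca
Clstn2, chr9:98033243-98033337, between genes: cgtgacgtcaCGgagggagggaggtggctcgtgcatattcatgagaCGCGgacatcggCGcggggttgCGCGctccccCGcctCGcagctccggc
Gm42596, chr5:110431777-110431855, non-coding exon of Fbrsl1: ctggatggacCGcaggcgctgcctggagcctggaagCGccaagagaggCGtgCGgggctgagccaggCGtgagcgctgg

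The next 4 stretches each hold a stable CpG inside CCGG and a stable CpG outside it within 50 bases, in a CpG island promoter. They are shown because the levels of both were steady and yet far apart: 43.0% and 1.09% at Prkce, a protein kinase C gene; 51.0% and 2.98% at Gdnf, a neurotrophic factor gene; 53.3% and 6.30% at Hoxc13, a homeobox gene; and 37.7% and 3.48% at Polr2i, an RNA polymerase II subunit gene. In each pair the value inside CCGG is the first. These are 4 of 23 such pairs in 22 genes, picked after their values were seen.
Prkce, chr17:86168648-86168707, coding exon: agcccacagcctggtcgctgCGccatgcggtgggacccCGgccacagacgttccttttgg
Gdnf, chr15:7810745-7810813, between genes, before the gene: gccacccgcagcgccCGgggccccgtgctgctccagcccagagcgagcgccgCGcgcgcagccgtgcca
Hoxc13, chr15:102921607-102921669, coding exon: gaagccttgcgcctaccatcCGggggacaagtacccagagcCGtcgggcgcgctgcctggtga
Polr2i, chr7:30232733-30232818, coding exon: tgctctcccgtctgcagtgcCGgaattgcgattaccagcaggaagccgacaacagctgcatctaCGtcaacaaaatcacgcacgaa

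The last 2 stretches each hold a single CpG inside CCGG, in an intron of Cpt1a, the carnitine palmitoyltransferase that brings fatty acids into mitochondria (47.3%), and at 96.3% in a site assigned to Ttc9b that lies in an intron of Map3k10.
Cpt1a, chr19:3325003-3325054, intron: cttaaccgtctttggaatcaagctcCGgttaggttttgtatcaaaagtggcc
Ttc9b, chr7:27661225-27661276, intron of Map3k10: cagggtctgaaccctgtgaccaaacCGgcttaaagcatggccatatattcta

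Stable sites were found at every level. Their median level was 56.0%, with 80% of them between 11.2% and 90.9%, against a median of 68.0% at the other autosomal sites. Of the 9959 sites, 871 had a mean level under 10%, 7925 a level of 10% to 90% and 1163 a level over 90%. These classes held 8.75%, 79.6% and 11.7% of the stable sites, against 2.85%, 85.7% and 11.5% of all autosomal sites, so low levels were more frequent among stable sites and intermediate levels less. The number over 90% rested on single mice, since it was 1844, 2730 and 2105 when DIO-HFD replicates 2, 3 and 4 were left out in turn. The median SD was 4.36 percentage points, against 7.29 at the other sites, and the median gap between the highest and the lowest mouse was 14.7 points, with 22.8 as the largest. The steadiest sites were near the ends of the scale. Of 169 sites with an SD under 2 points, 98 were under 10% and 65 over 90%, and 6 were intermediate. Of 6645 with an SD of 4 to 5 points, 5666 were intermediate. At 3 sites the level was 0 in all 14 mice, and each lies in a CpG island promoter: those of Rab11b, a vesicle-transport GTPase gene, Vars, which encodes valyl-tRNA synthetase, and Rcan3, a calcineurin regulator gene. Without read counts in the table, depth is unknown. Counting error and differences between mice cannot be told apart, and for a given number of reads counting error is largest at intermediate levels.

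The limit falls in a continuum. Just inside it were a site of Faim2, an inhibitor of Fas-induced death (25.3%, SD 4.9998 points), a site of Anp32a, a nuclear phosphoprotein gene (73.1%, SD 4.9999 points), and a site assigned to Myrf, a myelin regulator, in an intron of Dagla (93.9%, with an SD that rounds to the limit). Just outside were sites of Thra, the thyroid hormone receptor alpha gene (73.8%, SD 5.0001 points), Gm43851 (83.4%, SD 5.0002 points) and Mir7687 (87.7%, SD 5.0004 points).

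The intermediate stable sites were mostly at the cut sites of the assay. CCGG, which reads the same on both strands, held 5619 of the stable sites (56.4%), against 29.7% of the other autosomal sites and 33.3% of all of them. Of the 7925 intermediate stable sites, 5307 were inside CCGG. The share of sites that were stable depended on the level in opposite ways inside and outside it. Inside CCGG it was 5.95% of sites at 0 to 10%, rose to 32.9% at 40% to 50% and 32.6% at 50% to 60%, and was 12.2% at 90% to 100%. Outside CCGG it was 45.3% at 0 to 10%, fell to 1.82% at 60% to 70%, and was 14.7% at 90% to 100%. Only 10 of the 871 stable sites under 10% were inside CCGG.

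**Figure D1:**
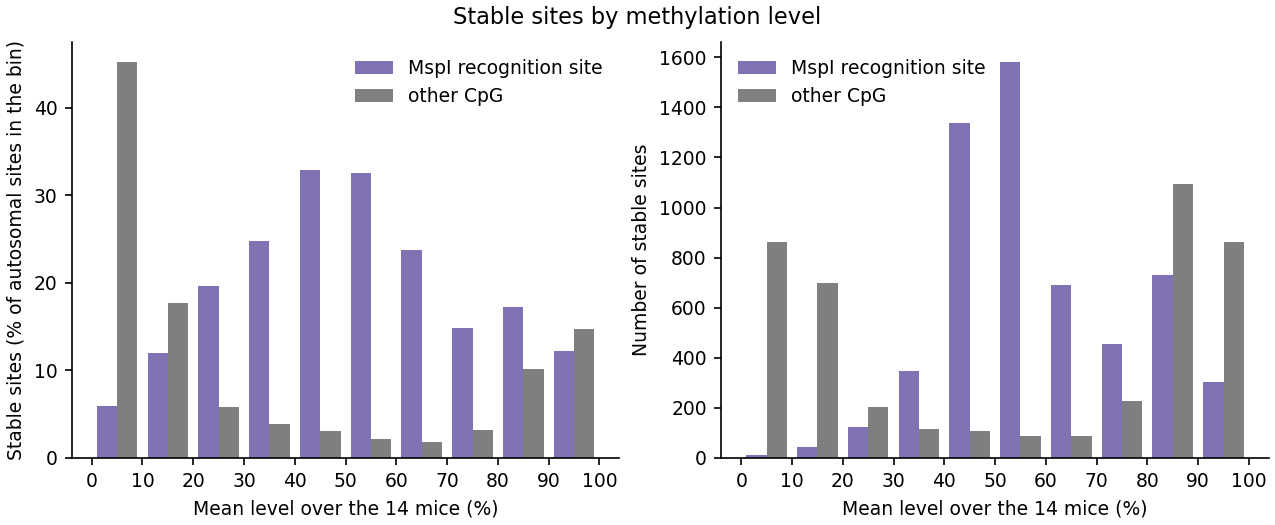
Left, percentage of autosomal sites in each 10-point bin of mean level that were stable, and right, the number of stable sites, for CpGs in the MspI recognition site (purple) and other CpGs (grey). The purple bars peak at 40% to 60%, with 32.9% and 32.6%, and the grey bars at 0 to 10%, with 45.3%.

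Stable sites near 50% lay mostly inside CCGG, where 1337 had a level of 40% to 50% and 1583 of 50% to 60%. Outside CCGG these numbers were 108 and 87. The 10 stable sites nearest to 50%, 1 per gene, were picked by that level, so their level of 50% is set by the choice. All were inside CCGG, with an SD of 3.16 to 4.64 points, and most of them in promoters. They include sites of Wnt10b, a Wnt ligand that restrains adipocyte formation, Isca1, an iron-sulfur cluster assembly factor, Cplx1, a complexin of synaptic release, Vsir, an immune checkpoint gene, Hspb9, Olfm2, Arl5c, Mir181c and 4833428L15Rik. At Wnt10b the level was 40.0%, 50.4% and 50.8% in CON-LFD mice, 45.4%, 47.9%, 46.1% and 46.8% in DIO-HFD mice, 49.2%, 52.9% and 52.7% in DIO-LFD mice, and 56.1%, 50.7%, 56.6% and 54.6% in DIO-VSG mice. All 4 DIO-VSG mice lay above all 4 DIO-HFD mice there, and CON-LFD mice spanned the range of the latter.

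The levels inside CCGG were compared with those of the nearest measured CpG outside it, at most 50 bases away, for the 1029 stable CCGG sites that had one. Where the neighbor was under 10%, the stable CCGG site had a median level of 53.3% (79 pairs, middle 80% from 41.9% to 64.0%). The median was 54.5% beside neighbors of 10% to 20%, 61.7% beside 20% to 40%, 76.3% beside 40% to 60%, 84.2% beside 60% to 80%, 88.2% beside 80% to 90% and 94.2% beside 90% to 100%. A least-squares line over the pairs had a slope of 0.475 and a value of 48.2% at a neighbor level of 0 (r = 0.766 across 1029 pairs of sites, which share mice and libraries). By contrast, 2227 stable sites outside CCGG differed from their nearest neighbor outside CCGG in both directions, by a median of 4.88 points in size and 0.233 points with the sign kept (r = 0.95). The high level beside unmethylated neighbors was not particular to stable sites, since CCGG sites that varied more had a median of 50% beside neighbors under 10% (283 pairs). In single mice, the median of the 79 stable CCGG sites beside a neighbor under 10% ran from 51.8% in DIO-HFD replicate 4 to 54.7% in DIO-HFD replicate 1. The part of the cut site in these levels was not tested.

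**Figure D2:**
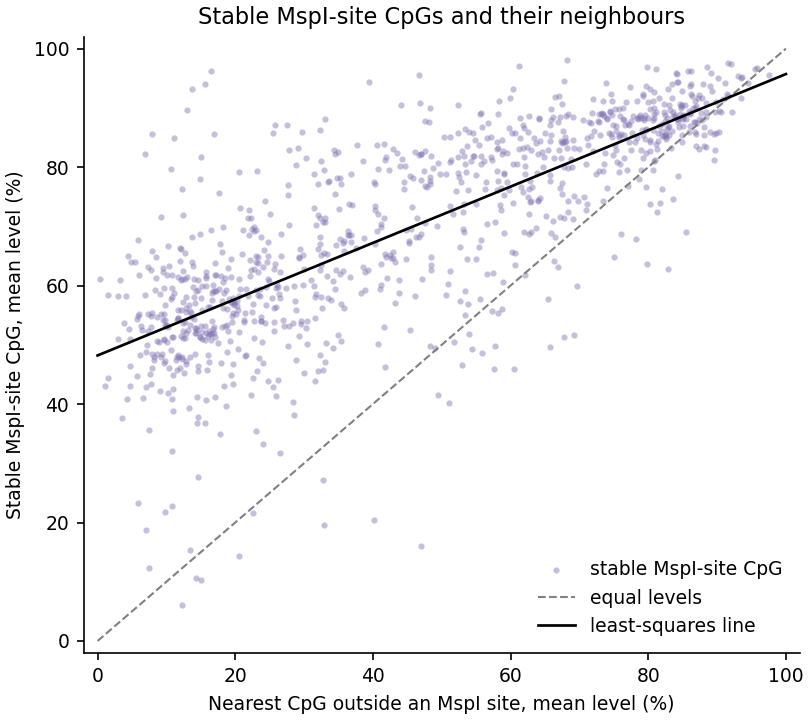
Mean level of each of 1029 stable CpGs in an MspI site (vertical axis, %) against the mean level of the nearest CpG outside such a site within 50 bases (horizontal axis, %). The solid least-squares line starts at 48.2% with a slope of 0.475, and most points lie above the dashed line of equal levels when the neighbor is low.

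The pair at Prkce, whose sequence is given above, shows both levels in each mouse. The CpG outside CCGG, on chromosome 17 at 86168668, was at 0.971%, 1.1% and 1.57% in CON-LFD mice, 0.820%, 1.85%, 3.07% and 0.763% in DIO-HFD mice, 0, 0.990% and 1.85% in DIO-LFD mice, and 0, 0, 0.885% and 1.44% in DIO-VSG mice. The CpG inside CCGG, on the same chromosome at 86168686, was at 40.4%, 47.5% and 37.4%, then 40.7%, 43.4%, 49.3% and 45.5%, then 39.5%, 42.3% and 47.1%, and 35.8%, 42.2%, 50% and 40.6% in the same order of groups. The lowest mouse at the second site was thus far above the highest mouse at the first, and at each site the 4 groups overlapped.

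Promoters and CpG islands held a larger share of the stable sites than of the rest. As the table marks them, 41.2% of stable sites were in promoters, against 22.8% of the other autosomal sites, and 35.5% against 21.2% were in CpG islands. Exons held 35.6% against 29.4%, introns 44.3% against 41.3%, and 14% against 26.4% had no annotation. The median distance to the transcript start was 1862 bp, against 5906 bp. The difference at promoters was present on either side of the cut-site split, since 28.8% of promoter sites inside CCGG were stable against 19% of non-promoter sites there, and outside CCGG 13.9% against 8.03%. In repeats, masked in the genome sequence, the order was the other way, as 7.09% of stable sites and 25.2% of the others lay there. By chromosome, the stable share ran from 9.96% on chromosome 10 to 17.2% on chromosome 2. Against the GENCODE vM21 gene models, 2287 stable sites lay in coding exons, 1202 in untranslated regions, 555 in non-coding exons, 3687 in introns and 2228 between genes. At 2153 of them (21.6%) the site lay inside a gene other than the one the table names, so a gene name below is that of the nearest transcript start and not always of the gene that holds the site.

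Most of the stable sites under 10% lay in CpG islands. Of these 871 sites, 63.0% were in CpG islands and 60.2% in promoters, with a median distance of 627 bp from the transcript start. The share in islands was 61.5% over all autosomal sites under 10%, so it is that of the level class. The genes with the most such sites included Clstn2 and Nptx2, a neuronal pentraxin gene, with 8 each, Rtkn with 7, and the mechanosensitive channel gene Piezo2 and the corepressor gene Skor2 with 6 each. Gm24240, Kcnt1, a potassium channel gene, Nhlh2, a neuronal helix-loop-helix gene, and Pax3, a paired-box gene of neural crest and muscle, had 5 each, and Neurog1, a neurogenic helix-loop-helix gene, had 4. At Clstn2, whose 8 sites lie within the sequence above, the steadiest site, on chromosome 9 at 98033313, was at 0, 2.03% and 0 in CON-LFD mice, 2.07%, 0, 4.30% and 0 in DIO-HFD mice, and 0 in all 3 DIO-LFD and all 4 DIO-VSG mice. Most mice read 0 there, and the 3 that did not were in the CON-LFD and DIO-HFD groups, which overlap the others.

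The stable sites over 90% lay mostly outside promoters and CpG islands. Of these 1163 sites, 5.07% were in CpG islands, the median distance was 12414 bp, and 26.8% lay in repeats. Over all autosomal sites above 90%, 2.55% were in islands, the median distance was 34158 bp and 76.0% lay in repeats, so the stable ones were nearer to transcript starts and less often in repeats than their level class. The genes with the most such sites were Gm42596 with 5, and Kdm3b, a histone demethylase gene, Hhipl1, Pard6b, a cell polarity gene, Rcan1, a calcineurin regulator gene, Asgr1, a liver receptor for desialylated glycoproteins, Gm15343, Unc5a, a netrin receptor gene, Gm11209 and Camta1, a transcription activator gene, with 3 each. In the Gm42596 run, the site on chromosome 5 at 110431813 was at 95.1%, 97.2% and 96.5% in CON-LFD mice, 93.0%, 95%, 93.5% and 91.5% in DIO-HFD mice, 95.5%, 92.5% and 93.0% in DIO-LFD mice, and 94.0%, 93.8%, 98.4% and 95.6% in DIO-VSG mice. All CON-LFD mice lay just above all DIO-HFD mice there, and the other groups overlapped both.

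In a promoter that is also a CpG island, 9 stable sites in 8 genes were over 90%. They included 2 sites of Gm16599 and 1 each of Gm20726, Mir7045, Erbin, Foxp4, a forkhead gene at 96.0%, Mnt, a Max-binding repressor gene at 93.0%, and Tab2, an adaptor of TAK1 kinase signaling at 95%. Of these 9 sites 3 were outside CCGG, as were 8 of the 87 autosomal sites over 90% in such places.

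Outside CCGG, stable sites at an intermediate level numbered 2618. Of those at 20% to 80%, Gnas held the most, with 17. Gnas spans chr2:174284320-174346744 on the plus strand and is transcribed from several promoters that are imprinted in different ways. It had 22 stable sites among 105, more than any other gene, and 17 of them, outside CCGG, lay between 43.2% and 57.4% with a mean of 47.5%. Its remaining site outside CCGG was at 85.3%, and its 4 sites inside CCGG were at 72%, 74.7%, 82.2% and 82.6%. A run of 9 sites over the exon printed above lay at 43.9% to 47.0%, and no other CpG of the table lay between them. The steadiest of these, on chromosome 2 at 174299992 with an SD of 2.66 points, was at 39.7%, 44.2% and 43.5% in CON-LFD mice, 41.5%, 43.2%, 44.0% and 43.4% in DIO-HFD mice, 49.0%, 41.0% and 47.9% in DIO-LFD mice, and 43.0%, 44.8%, 46.8% and 46.7% in DIO-VSG mice. The groups overlapped, and DIO-HFD mice spanned the narrowest range.

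**Figure D3:**
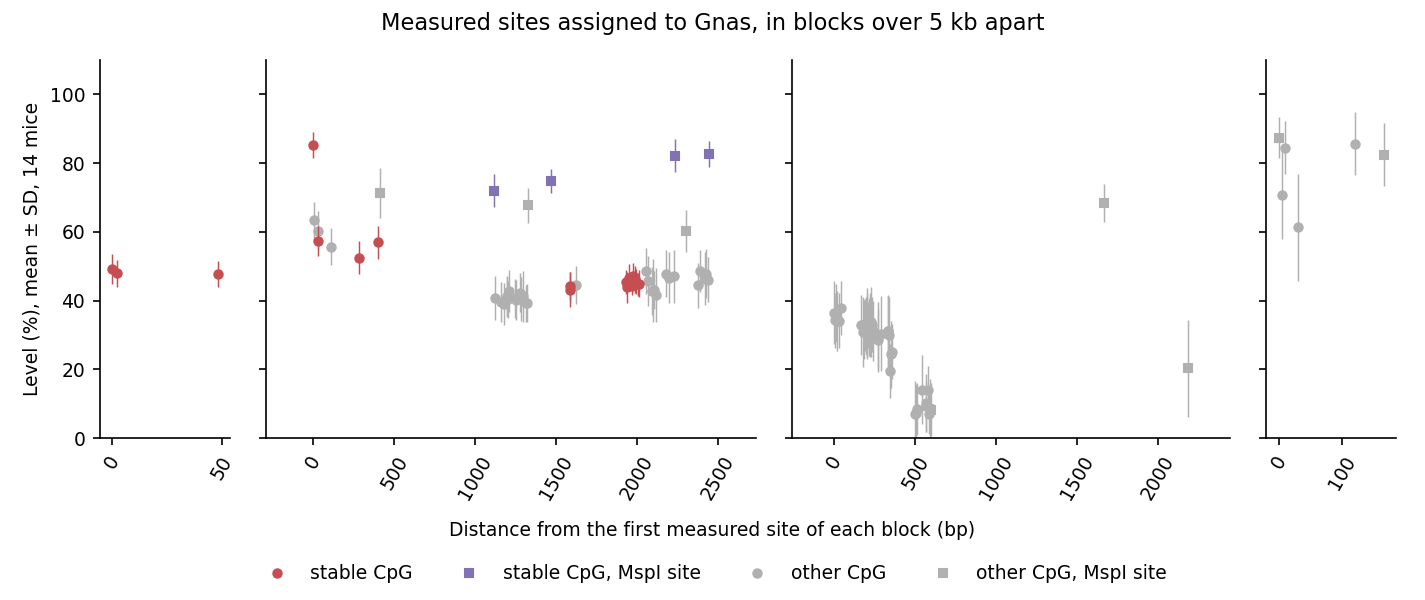
Mean level of every measured site assigned to Gnas (vertical axis, %, bars are the SD over 14 mice) against the distance from the first site of each block (bp). Stable sites outside an MspI site (red) cluster near the mean of 47.5%, stable sites in an MspI site (purple squares) lie at 72% to 82.6%, and the blocks on the right hold no stable site.

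Other genes with many stable sites at 20% to 80% outside CCGG differed in their levels and in how widely these were spread. Fignl2, a microtubule-severing ATPase gene, had 9 at 30.7% to 73.3%, Rap1gap, a regulator of the GTPase Rap1, 7 at 25.8% to 34.4%, and Shd 6 at 24.9% to 56.0%. Tbx4, a hindlimb and lung T-box gene, Ttc9b and the tenascin gene Tnxb had 5 each, and Pef1 and Gm44732 had 4 each. In the exon of Shd the levels of the stable sites went down and up along the sequence, with 48.0% at 55971491, 24.9% at 55971507, 46.9% at 55971522 and 35.6% at 55971532. At this last site the mice read 38.8%, 33.3% and 33.4% in CON-LFD, 39.2%, 33.6%, 33.3% and 36.6% in DIO-HFD, 34.8%, 43.2% and 31.5% in DIO-LFD, and 32.5%, 33.4%, 38.0% and 36.3% in DIO-VSG. The groups overlapped there, and no group stood apart. Between the sites just named, the down-and-up order held in each mouse. It did not hold for every neighboring pair of stable sites. At 55971485 and 55971491, with means of 56.0% and 48.0%, DIO-VSG replicate 3 read 51.9% and 52.6%. These genes were picked by their number of such sites after the values were seen.

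Stable sites were spread over many genes. A stable site was assigned to 4683 of the 12086 genes with an autosomal site, while 1698 of the 4330 genes with at least 5 sites had none. Picked in the same way, the most after Gnas were found at Camta1 and Rap1gap, with 16 each, and at the axon guidance gene Slit1 (15 of 22 sites), Rtkn (15 of 17) and the homeobox gene Barx1 (15 of 20). Among the genes with at least 5 sites, every site was stable in 12, including Pax6, a paired-box gene of the eye, with 9 sites, Gm42596 with 7, and Cpt1a, Brd3, a bromodomain gene, and Aldh1l1, a folate enzyme gene, with 6 each. At Pax6 the 3 sites outside CCGG were at 13.1% to 18% and the 6 inside it at 46.3% to 70.8%. All 6 sites of Cpt1a were inside CCGG, from 37.0% to 92.4%. At Cpt1a, on chromosome 19 at 3325028, the DIO-LFD mice read 43.6%, 40.7% and 43.2% and lay below the 49.1%, 54.3% and 51.7% of CON-LFD mice and the 48.1%, 47.8%, 47.5% and 50.7% of DIO-HFD mice, while DIO-VSG mice read 50.3%, 46.6%, 44.1% and 44.5%. This site was thus inside the SD limit although the DIO-LFD mice did not overlap any of the 3 other groups.

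Gene lists, chosen with results of these data known, are described by the share of their sites that were stable, beside 13.7% (median level 56.0%) over all autosomal sites and 8.98% outside CCGG. The shares are counts of sites, and neighboring sites of a gene are not independent. Among lists made up mostly of genes that every cell uses, proteasome subunits had 13 stable sites of 25 (52.0%). All were inside CCGG, with a median level of 54.0%. RNA polymerase II subunits and general factors had 21 of 53 (39.6%, median 51.3%), ribosomal proteins 22 of 107 (20.6%, median 48.4%), mitochondrial respiration and ribosome genes 27 of 162 (16.7%, median 51.8%), translation factors 9 of 56 (16.1%) and splicing factors 8 of 86 (9.30%). The proteasome examples were Psma7 (3 of 4 sites), Psmc1, and the immunoproteasome subunit genes Psmb10 and Psmb8. Outside CCGG proteasome genes had 0 stable sites of 11, and the polymerase list had 8 of 27, among them sites of Polr2i.

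Genes of embryonic patterning had more stable sites than the average on either side of the split. Outside CCGG their stable sites were mostly at low levels. Of all autosomal sites outside CCGG, 45.3% were stable at 0 to 10% and 17.7% at 10% to 20%. The shares of the lists were not compared within a level class. The Hox clusters, which set position along the body axis, had 99 of 344 sites (28.8%, median 46.4%) and 42 of 200 outside CCGG (21.0%, median 13.5%). Hoxd3 had 13 of 47, Hoxa10 9 of 21, Hoxd4 8 of 11 and Hoxb9 6 of 31. Other developmental transcription factors had 552 of 2206 (25%) and 222 of 1223 outside CCGG (18.2%, median 12.4%), led by Barx1, the craniofacial homeobox gene Msx1 (14 of 30), Tbx4 (13 of 26) and Sox14 (13 of 20). Protocadherins, the neuronal adhesion proteins, had 12 of 97 (12.4%), and olfactory, vomeronasal and taste receptors 16 of 723 (2.21%), the lowest share of the lists, with 5 of them at the taste receptor gene Tas1r2.

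Imprinted genes had 53 stable sites of 289 (18.3%, median 49.3%) and 38 of 236 outside CCGG (16.1%, median 47.5%). Gnas gave 22 of the 53, Kcnk9, a potassium channel gene, 5, Cdkn1c, a cyclin-dependent kinase inhibitor, 4, and Kcnq1 3. Zinc finger genes of the Zfp series had 117 of 837 (14%), enzymes of chromatin and DNA methylation 26 of 228 (11.4%), and germline genes 9 of 76 (11.8%).

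Lists that fit the tissue were near or above the average. Adipocyte and lipid metabolism genes had 27 of 201 (13.4%, median 59.8%), with Cpt1a, the sterol regulator Srebf1 (3 of 8 sites), Ppara, a nuclear receptor of fatty acid oxidation (3 of 10), and Elovl3, a fatty acid elongase (2 of 3, at 1.79% and 2.10%). Immune genes had 23 of 88 (26.1%), with the NF-kappa-B subunit gene Rela (5 of 15) and the interferon regulatory factors Irf8 (4 of 9) and Irf7 (3 of 5). Mammary epithelial genes had 11 of 50 (22.0%, median 42.7%), with the claudin genes Cldn4 (3 of 12) and Cldn3 (2 of 3) and the keratins Krt8 (31.7%) and Krt18 (30.4%). Not every cell type marker had a site in the table: 3 of 7 adipocyte markers did (8 sites), 5 of 6 epithelial (13 sites), 4 of 7 lymphocyte (28 sites), 2 of 3 fibroblast (26 sites), 1 of 3 macrophage (1 site) and 2 of 3 endothelial (4 sites). Of all the markers, 1 of 7 adipocyte markers had a stable site (Lipe, hormone-sensitive lipase, 78.4%), as did 3 of 6 epithelial (Cdh1, Krt8 and Krt18, 6.64% to 31.7%), 1 of 7 lymphocyte (Zap70, a T-cell kinase, 7.22% to 39.6%), 2 of 3 fibroblast (Col1a1 and Pdgfra, 26.8% to 88.7%), and 0 of 3 macrophage and 0 of 3 endothelial markers. The table holds methylation and not expression, so the labelled tissue was not checked by expression. A shift in the shares of cell types and a change within a cell type cannot be told apart.

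Averaged over all stable sites, the mice lay between 55.2% and 57.5%, a span of 2.25 points, against 57.3% to 66.5% and 9.19 points over the other autosomal sites. The group means over stable sites were 56.6% ± 0.582 (SD, n = 3) in CON-LFD, 56.0% ± 1.05 (SD, n = 4) in DIO-HFD, 56.8% ± 0.537 (SD, n = 3) in DIO-LFD and 57.1% ± 0.0474 (SD, n = 4) in DIO-VSG mice. DIO-HFD replicate 1 stood apart from its group, with 57.5% against 55.2%, 56.2% and 55.3%, and with 66.5% against 57.3% to 57.7% over the other autosomal sites. At stable sites over 90% it was at 94.6% and the other DIO-HFD mice at 91.5%, 91.1% and 91.5%, with 92.9% to 94.5% in the mice of the other groups.

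The classes of stable sites differed in how far the mice were apart. Intermediate sites inside CCGG spanned 1.39 points over the mice, with group means of 57.4% ± 0.354 in CON-LFD, 57.2% ± 0.651 in DIO-HFD, 57.5% ± 0.321 in DIO-LFD and 57.7% ± 0.0657 in DIO-VSG mice. Intermediate sites outside CCGG spanned 3.68 points, with 55.7% ± 0.976, 54.5% ± 1.72, 55.8% ± 0.842 and 56.4% ± 0.142 in the same order. Sites under 10% spanned 3.92 points, and DIO-HFD mice were spread widest there, from 3.88% in replicate 2 to 7.80% in replicate 3. At single sites, the highest group mean exceeded the lowest by a median of 5.02 points and at most 12.9, against a median of 9.67 at the other sites, a bound that the rule itself sets.

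**Figure D4:**
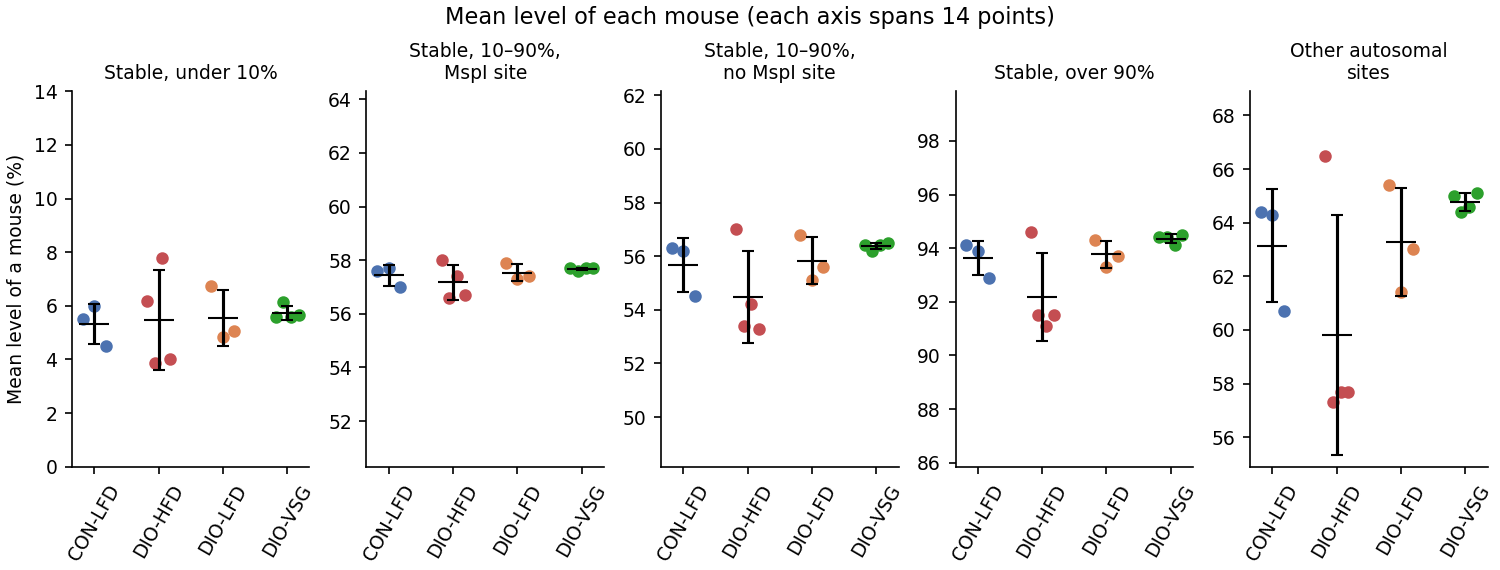
Mean level of each mouse (vertical axis, %, each axis spanning 14 points) over 4 classes of stable sites and over the other autosomal sites, with the mean and SD of each group as bars. The mice lie within 1.39 points at intermediate stable sites in an MspI site and within 9.19 points at the other sites, where DIO-HFD replicate 1 is at 66.5%.

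The 4 comparisons of diet and surgery asked whether small but regular differences remained at the stable sites. On a logit scale of the level b, M = log2((b + 0.01)/(1 − b + 0.01)), limma was run over the whole table, with the Benjamini-Hochberg adjustment over all 75761 sites and a threshold of 0.05. A small total spread limits both the difference and the error, so the counts at stable sites are a description beside those over all sites. Between CON-LFD and DIO-HFD mice limma called 0 of the 9959 stable sites, as it called 0% of all sites. It called 0 stable sites between DIO-LFD and DIO-HFD mice, against 0.00264% of all sites, 0 for DIO-VSG against DIO-HFD mice, beside 0.00264%, and 0 for DIO-VSG against DIO-LFD mice, against 0.00132%. At an unadjusted p under 0.05, limma gave 326, 512, 759 and 364 stable sites in these comparisons. These are 3.27%, 5.14%, 7.62% and 3.65% of them, against 7.80%, 10.1%, 23.8% and 4.26% of all sites. Fitting only the 2 groups compared, limma called 0 stable sites between CON-LFD and DIO-HFD mice (0.00264% of all sites), 0 between DIO-LFD and DIO-HFD mice (0.0185% of all sites), 4 for DIO-VSG against DIO-HFD mice (0.0402% against 0.0686% of all sites) and 1 between DIO-VSG and DIO-LFD mice (0.01% against 0.0277%).

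Without DIO-HFD replicate 1 the counts were no longer 0. Limma then called 142 stable sites between CON-LFD and DIO-HFD mice (1.43%, against 10.6% of all sites), 230 between DIO-LFD and DIO-HFD mice (2.31% against 13%) and 868 in DIO-VSG against DIO-HFD mice (8.72% against 30.8%). Of these, 115, 197 and 722 were higher than in the 3 remaining DIO-HFD mice, and 27, 33 and 146 were lower. Between DIO-VSG and DIO-LFD mice the count stayed at 0. The share called was in each comparison with DIO-HFD mice below that of the whole table.

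The stable site with the smallest p between CON-LFD and DIO-HFD mice lay at -1130 bp from the start of Lbx1, a homeobox gene of muscle precursors, inside CCGG on chromosome 19 at 45236941. It was at 100%, 100% and 97.6% in CON-LFD mice, 90.9%, 92.9%, 92.7% and 88.5% in DIO-HFD mice, 98%, 100% and 100% in DIO-LFD mice, and 95.6%, 96.9%, 97.8% and 95.6% in DIO-VSG mice. Every DIO-HFD mouse was below every mouse of the other groups. M was 2.79 higher in CON-LFD than in DIO-HFD mice (SE 0.50, limma, adjusted p = 0.623), a difference of 7.96 points.

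The site with the smallest p in both weight-loss groups against DIO-HFD mice was assigned to the predicted gene Gm28228, which starts 120979 bp away, on chromosome 19 at 28209833. It was at 100% in all 3 DIO-LFD and all 4 DIO-VSG mice, at 98.1%, 83.3%, 89.3% and 93.9% in DIO-HFD mice and at 96.9%, 96.5% and 96.7% in CON-LFD mice. Both groups were thus above each DIO-HFD mouse. Against DIO-HFD mice M was 3.15 higher in DIO-LFD mice (SE 0.49, limma, adjusted p = 0.302) and in DIO-VSG mice (SE 0.46, adjusted p = 0.152). These comparisons share the DIO-HFD mice.

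Between DIO-VSG and DIO-LFD mice the smallest p was at a CpG island promoter site on chromosome 5 at 131307559 of Wbscr17, which GENCODE lists as Galnt17, a gene of the family that starts O-linked glycan chains. It was at 11.2%, 12.8%, 9.09% and 14.1% in DIO-VSG mice, 0, 1.19% and 1.67% in DIO-LFD mice, 1.90%, 7.44% and 5.07% in CON-LFD mice and 5.98%, 3.6%, 5.38% and 1.13% in DIO-HFD mice. All DIO-VSG mice were above all other mice, and CON-LFD and DIO-HFD mice overlapped. M was 2.98 higher in DIO-VSG than in DIO-LFD mice (SE 0.51, limma, adjusted p = 0.282).

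Groups that do not overlap were counted without a test. All mice of a group lay on 1 side of all mice of the other at 637 stable sites (6.40%) between CON-LFD and DIO-HFD mice, against 4.91% of all sites. The count was 637 (6.40%) between DIO-LFD and DIO-HFD mice, against 5.02%, 613 (6.16%) for DIO-VSG against DIO-HFD mice, beside 7.39%, and 751 (7.54%) between DIO-VSG and DIO-LFD mice, against 7.70%. These shares are near those of the whole table. Of the stable sites apart, 376, 410, 432 and 401 were higher in the group named first, and 261, 227, 181 and 350 lower. Of the other sites of the table that were apart, 2160, 2219, 3649 and 3237 were higher and 920, 944, 1338 and 1846 lower. The excess of higher sites was thus not particular to the stable ones. The gap between group means at the stable sites apart was 6.12 to 6.80 points in the median of each comparison. A gap of at least 2 points between the nearest mice of both groups was then required. In the same order of comparisons, 179 stable sites (1.80%, against 2.24% of all sites), 198 (1.99% against 2.39%), 161 (1.62% against 3.39%) and 238 (2.39% against 3.30%) remained. Each is a smaller share than over the whole table, but the SD limit bounds such gaps, so this is not read as a result.

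Whether a site picked as stable in some mice was stable in others was read in mice that had no part in the choice. Sites with an SD under 5 points over 13 mice numbered 9882 to 13640, and the mouse left out lay within 5 points of their mean at 43.8% to 71.6% of them. The share was 63.2%, 71.6% and 67.2% for CON-LFD mice, 59.9%, 50.6%, 43.8% and 49.6% for DIO-HFD mice, 53.7%, 53.2% and 62.1% for DIO-LFD mice, and 70.6%, 63.2%, 70.2% and 69.1% for DIO-VSG mice. At sites not chosen it was 33.2% to 62.1%, lower in each mouse but DIO-LFD replicate 3, which had 62.1% at both kinds of site. DIO-HFD replicates 2, 3 and 4 had the lowest shares at the chosen sites, and lay below the mean of the other mice by an average of 3.37, 2.94 and 3.6 points, whereas replicate 1 lay 1.26 points above it.

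A whole group was left out in the same way. Sites stable over the other 3 groups numbered 10362 without CON-LFD, 13371 without DIO-LFD and 10792 without DIO-VSG mice, but 25425 without DIO-HFD mice. The group left out differed from the rest by a mean of -0.166 points (CON-LFD), -0.0133 points (DIO-LFD) and 0.627 points (DIO-VSG), with 84.9%, 76.6% and 79.8% of sites within 5 points. DIO-HFD mice differed by -3.28 points, with 49.6% of sites within 5 points and 25.7% of sites higher. By mouse the shift was 1.43, -4.77, -4.80 and -4.96 points, so replicate 1 went the other way, and without it the group's shift was -4.85 points. At sites not chosen, the share within 5 points was 80.5% for CON-LFD, 75.1% for DIO-LFD, 53.1% for DIO-VSG and 48.1% for DIO-HFD mice, so choosing the sites raised it by most for DIO-VSG mice. The shift of DIO-HFD mice there was -3.78 points, close to that at the sites chosen.

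The shift of DIO-HFD mice depended on the class of site. It was -5.10 points at 5294 sites over 90% (0.143, -5.12, -8.80 and -6.62 by mouse). At 10920 intermediate sites outside CCGG it was -3.96 points (2.24, -6.19, -5.77 and -6.14 by mouse). At 8007 intermediate sites inside CCGG it was -1.98 points (1.31, -3.48, -2.53 and -3.23 by mouse). Replicate 1 thus went the other way in both intermediate classes. The shift was 2.38 points at 1204 sites under 10%. At the last, replicate 3 was at 6.50 points and the others at 0.540 to 1.45. DIO-VSG mice were above the other groups by 1.63 points at intermediate sites outside CCGG, in every mouse. At sites under 10% they were above by 1.92 points in every mouse, as all DIO-LFD and DIO-HFD mice were when left out. The signs at the ends of the scale were the same in each group. At sites over 90% CON-LFD mice shifted by -1.63 points, DIO-LFD mice by -2.10 and DIO-VSG mice by -0.965. At sites under 10% the shift was 0.452 points for CON-LFD and 1.29 for DIO-LFD mice. The classes were set by the mean of the other groups, so a group left out can differ mainly upward at the low end and downward at the high end. The signs at the ends are thus not read as a trait of any group.

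**Figure D5:**
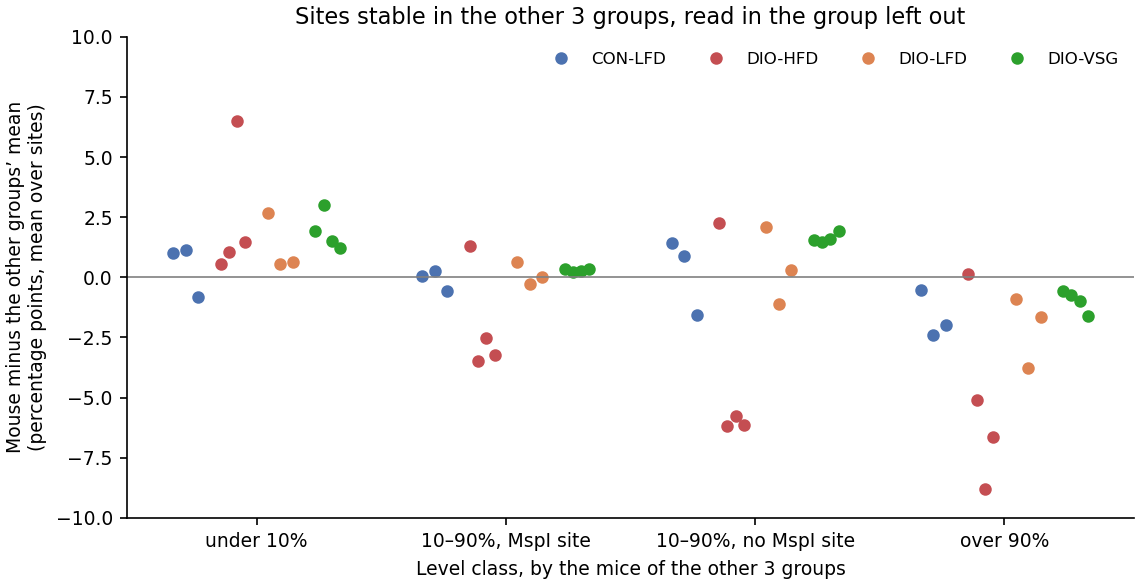
For sites chosen as stable over the other 3 groups, the difference between each mouse of the group left out and the mean of the others (vertical axis, percentage points, mean over sites) in 4 classes of level and MspI site (horizontal axis). DIO-HFD replicates 2 to 4 lie lowest at sites over 90%, down to -8.80, and replicate 1 lies at 0.143.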

How the data were processed

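Mammary adipose DNA of 14 mice was measured by RRBS. Per the methods and the submitters' processing notes, reads were aligned to mm10 with Bismark, sorted with samtools and called with methylKit, and 1 CON-LFD and 1 DIO-LFD mouse were removed for poor sequencing quality. The authors deposited levels as a fraction from 0 to 1, the methylated share of reads, with no missing value. The methods name the removal of bases with an SD under 0.05 and of bases with extreme coverage, yet the deposited table holds the stable sites, so the stable sites are those such a filter would drop, and why they are in the table is not given in the sources used here. Read counts are not given, so depth is unknown and no interval was computed.

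The members and the gene lists were chosen with earlier results of these data known. The SD was the sample SD of the level over 14 mice, and percentages are fractions times 100. Promoter, exon, intron, CpG island and gene names are those of the table. CCGG, repeats and sequences were read from the RefSeq GRCm38.p6 sequence, and places from GENCODE vM21. For 47 stable sites no symbol is given and for 15 the symbol has become a date, and these were left out of counts of genes. Neighbors were searched within 50 bases. The genes named were the 10 stable sites nearest to 50%, 1 per gene, the 10 genes with the most sites in the low, the high and the high promoter-island class, the site with the smallest p per comparison, the 3 sites on each side of the limit, and up to 4 genes per list. Others, named as such, were picked after their values were seen. Some genes that these rules select are not reported here.

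M values, with an offset of 0.01, of all 4 groups entered a single limma model (limma 3.58.1 under R 4.3.3), with moderated variances from eBayes and neither trend nor robust. The fit was tested on simulated data. Tables and figures were made with Python 3.11.15, NumPy 2.4.6, pandas 2.3.3, pysam 0.24.0 and Matplotlib 3.10.9. Alternatives were other SD limits, a limit on the range, the population SD, other class limits, sites outside CCGG, other offsets, the level in place of M, trend and robust, only the 2 groups compared, only the stable sites, a gap between groups, the replicate number as a block, and each mouse left out.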

Additional observations from a re-analysis of the deposited data

Results flagged for a closer look

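Dixon's test was used to find single mice far from the rest of a group of 4. Of 70 such groups, 8 passed its 95% critical value, and about 1 in 20 groups would by chance. In 6 of them DIO-HFD replicate 1 was the high mouse. Its mean level was 65.2% over all autosomal sites, 66.5% over those that were not stable, 94.6% over stable sites above 90% and 69.8% over stable sites without an annotation, and its mean deviation as a mouse left out was 1.26 points. At the Crygn site it was at 3.46%, with 1.04% to 1.36% in the others. The DIO-HFD mice at the Fam155a site also passed, with replicate 3 at 7.25%. Among DIO-VSG mice, replicate 3 was the low one over stable sites above 90% (94.1%, against 94.4% to 94.5% in the others). The cause of these gaps was not tested.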

How the results depend on the processing

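The number of stable sites is set by the limit. An SD under 0.03 left 858 sites (301 low, 295 intermediate, 262 high, 356 in CpG islands, 361 in promoters), and an SD under 0.1 gave 58016 (2041, 47780, 8195, 13452 and 14874). A range under 0.15 gave 5815 sites, with 4184 intermediate, 2054 in islands and 2399 in promoters. Outside CCGG there were 4340, with 2618 intermediate, 1117 in islands and 1096 in promoters. Class limits of 0.05 and 0.95 gave 389 low and 335 high sites, and limits of 0.2 and 0.8 gave 1613 and 2986. Of the 39 counts of stable sites per named gene, an SD under 0.03 moved 38, an SD under 0.1 moved 13, sites outside CCGG alone 17, a range under 0.15 moved 17 and the population SD 0, and leaving out a mouse moved 10 of 546. With 1 mouse left out, there were 9882 to 13640 stable sites, 3433 to 4063 in islands, 3998 to 4623 in promoters, 838 to 1098 low and 7716 to 9812 intermediate. The number of high sites ran from 1178 to 2730 and was 1844, 2730 and 2105 without DIO-HFD replicates 2, 3 and 4, against 1163.

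In the fit of only the 2 groups limma called 4 stable sites for DIO-VSG against DIO-HFD mice (0.0402%, against 0.0686% of all sites) and 1 for DIO-VSG against DIO-LFD mice (0.01% against 0.0277%). With 1 mouse left out, the calls ran from 0 to 142 between CON-LFD and DIO-HFD, 0 to 230 between DIO-LFD and DIO-HFD, 0 to 868 for DIO-VSG against DIO-HFD and 0 to 1 between DIO-VSG and DIO-LFD mice. The highest of the first 3 came when DIO-HFD replicate 1 was left out. Leaving out DIO-LFD replicate 1 or 2 gave 1 call each (0.01% of stable sites) for DIO-LFD mice against DIO-HFD and against DIO-VSG mice. The share called over all sites was 0.0106% and 0.0502% against DIO-HFD mice, without replicate 1 and 2 in turn. Against DIO-VSG mice it was 0.0119% and 0.0185%. With an offset of 0.1, the level itself, trend and robust, or only the stable sites, limma called 0 in all 4 comparisons. The sites of Lbx1, Gm28228 and Wbscr17 kept their direction in every alternative.

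Stable sites whose groups were apart numbered 179, 198, 161 and 238 with a gap of at least 0.02. With 1 mouse left out they ran from 951 to 1820, 899 to 1760, 831 to 2196 and 1119 to 1948, the most when DIO-HFD replicate 1 (first 3) or DIO-LFD replicate 1 (last) was left out. Fewer mice per group raise such counts by construction. No share over all sites is given beside these counts, so they are not read as a result about the stable sites. As alternatives chosen after seeing the data, the shift of DIO-HFD mice was -4.85 without replicate 1, and CCGG sites that were not stable had a median of 50% beside neighbors under 10%.

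With the replicate number as a replicate block limma called 0 stable sites in each comparison (smallest adjusted p 0.643, 0.505, 0.113 and 0.565). The numbers do not pair the mice: deviations from the group means over autosomal sites correlated at -0.260 to 0.427 in 19 pairs of mice with the same number (median 0.0553) and at -0.544 to 0.427 in 54 other pairs. For the results of the comparisons and counts, 175 values under alternatives stayed near the first value and 62 moved as above, and none reversed. Unknown depth limits all levels, most of all a level of 0 or 100%, and groups of 3 and 4 mice limit the tests.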
